A study of Mus musculus with 2 samples.

Results

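Major urinary proteins and other lipocalins were examined in RNA of mouse embryonic ureters. The set comprised 8 genes, namely Mup1, Mup17, Mup18, Mup19, Mup21, Lcn2, Apod and Obp2a, out of 30011 gene names on the array. They were read by 9 probes, because Apod had 2. The genes were selected by name with the ratios of these same arrays already known, so all values of the 8 genes are given as a description, without a test. Mup18 was found only through the RefSeq listing, since the array files carry a locus name for its probe. Of the 8 genes, 7 had a probe well above background and Obp2a had none.

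Lipocalins are small secreted proteins whose barrel-shaped fold encloses a greasy ligand. Major urinary proteins are best known from the adult male mouse liver, which secretes them under hormonal control, and from urine, where they carry volatile pheromones. Of the other members, Lcn2 binds the siderophores with which bacteria collect iron and is released by neutrophils and injured kidney epithelium, Apod is a lipid carrier of glia and connective tissue, and Obp2a is an odorant-binding protein of nasal glands.

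The ureters came from E16.5 embryos on an NMRI background and were compared on 2 dual-colour arrays, with female pools on array 1, male pools on array 2 and the dyes exchanged between them. One pool on each array was Pax2-cre/+; Pparg(fl/fl), termed Pparg-cKO, and the other was a Pparg(fl/?) control, in which at least 1 floxed allele was present and, by the study's methods, no cre. Pax2-cre acts in the nephric duct and its derivatives, the ureteric epithelium and the collecting ducts, so the mesenchyme of the ureter was not a target of the deletion, and each pool mixed ureters of several embryos. There was 1 array per sex, so dye, sex and pool cannot be told apart.

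On both arrays the labels of the dyes run against the direction that the study itself uses. For this reason each RNA is called by its dyes and not by its genotype, which was never read from the measurements. RNA A carried AlexaFluor647 on array 1 and AlexaFluor555 on array 2, which makes it the control by the labels and the Pparg-cKO by the study's own direction. RNA B is the other. Every ratio below is log2 of RNA A over RNA B, so a positive value says that RNA A was brighter. The single Pparg probe gave 11300 for RNA A against 7430 for RNA B in the female pools, and 12890 against 7872 in the male pools. The files do not say whether this probe lies in the deleted exons, so it does not settle the labels.

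Each array held 157716 spots for 39429 probes, in general 4 per probe, and none was saturated. Between 70.4% and 80.4% of spots in a channel were well above background. The ratios of the 28298 probes above background had Pearson's r of -0.07 and Spearman's rho of -0.25 between the arrays, given as a description across probes. On the array, all 10 urothelial and all 5 ureteric smooth muscle markers were well above background, and none of 5 adipocyte markers was. Fabp4, a target of PPARG in fat that was placed in another list, was bright, with signals from 14150 to 19610. The 5 adipocyte markers alone therefore do not say whether the pools held fat tissue. In pooled tissue, fewer cells of a type and less RNA per cell cannot be told apart.

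The Mup genes lie in 1 cluster and are near copies of each other, so the sequences that the probes recognise are shown first. All 24 probes that the files name or describe as major urinary protein lie on chromosome 4 between positions 59969824 and 61808925 (mm9), a span of 1839 kb. Among their 276 pairs, 9 shared an identical run of at least 20 of their 60 bases. The probe of Mup17 (chr4:61253019-61253078, minus strand) begins with the 35 bases that end the probe of Mup18 (chr4:61331294-61331353, minus strand). The first 30 bases of this run stand here because the values of both genes rest on it, with all letters in capitals as identical.
Mup17: CTAGGATACCTCATCAAGAATCAAAGACTT
Mup18: CTAGGATACCTCATCAAGAATCAAAGACTT
The probe of Mup19 (chr4:61439496-61439555, minus strand) resembles those of Mup4, Mup20 and Mup-ps16, a pseudogene by its name. In the 30 bases shown, 4 positions differ among the 4 probes and are in capitals.
Mup19: gatctgcAttccatcCtgtctCacTgagaa
Mup4: gatctgcTttccatcCtgtctCacAgagaa
Mup20: gatctgcTttccatcGtgtctTacAgagaa
Mup-ps16: gatctgcTttccatcAtgtctCacAgagaa
The probe of Mup21 (chr4:61808866-61808925, minus strand) shared no more than 11 identical bases with any other Mup probe, and its nearest was that of Mup2. Capitals mark the 8 of 30 positions at which these differ.
Mup2: gaggcccttccCaaAgTattaAtgtTGTGc
Mup21: gaggcccttccAaaTgCattaTtgtGCCCc
Within the 24 probes, the probe of Mup1 (chr4:60512590-60512649, minus strand) also had no run above 11 bases in common with another. Its first 30 bases are printed in lower case.
Mup1: aactttcttatggctcatctcattaacgaa
The files do not say whether a probe lies in coding sequence or in a UTR. Because of the shared runs, the signals of Mup17 and Mup18 are no separate measurements, and those of Mup19, Mup4, Mup20 and Mup-ps16 may each include transcripts of the others. Probes were compared only with probes and not with transcripts. A short shared run, as for Mup1 and Mup21, therefore does not show that a probe reads its own gene alone. The probes of Mup2 (chr4:60149741-60149800) and Mup11 (chr4:60149947-60150006) lie close together on the minus strand, yet their longest shared run is 5 bases.

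**Figure D1:**
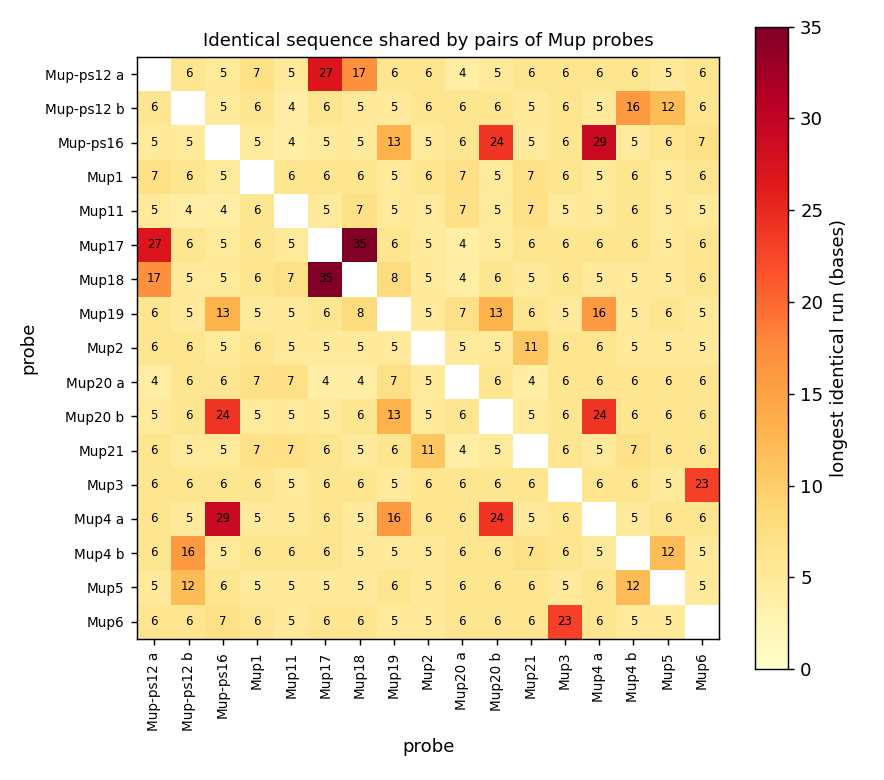
Longest run of identical bases shared by each pair of probes of named Mup genes, in bases by colour and number, with a and b for the brighter and dimmer probe of a gene. The Mup17 and Mup18 probes share 35 bases, and Mup4 shares 29 with Mup-ps16, while the row of Mup1 holds no value above 7.

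Of the major urinary proteins, Mup1, Mup17, Mup18 and Mup19 gave more signal in RNA A in both sexes, between 3.06-fold and 4.36-fold in the female pools and between 1.96-fold and 2.24-fold in the male pools. Mup1 encodes a pheromone-binding protein of liver and urine, and Mup17, Mup18 and Mup19 encode close relatives. Mup21 differed from them, since its direction changed between the arrays.

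In the female pools, the processed signal of Mup1 was 385 for RNA A against 88.4 for RNA B, and in the male pools 186 against 90.6. The 4 spots of RNA A ranged from 351.9 to 406.3 on array 1 and the 4 of RNA B from 83.7 to 95.1. On array 2 the spots of RNA A ranged from 168.5 to 198.3 and those of RNA B from 83.6 to 93.3. The spots of the RNAs overlapped on neither array, and RNA A was the channel that differed between the arrays while RNA B had almost the same signal on both. The log2 ratios were 2.12 and 1.04, a mean of 1.58 ± 0.77 (SD, n = 2 arrays).

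Mup17 gave 232 for RNA A against 71.1 for RNA B in the female pools, and 111 against 53.9 in the male pools. For Mup18 these signals were 264 against 82.0 in female and 144 against 64.0 in male pools. Both probes, which share the run printed above, were thus brighter in RNA A on both arrays, and both RNAs were dimmer on array 2. The log2 ratios of Mup17 were 1.71 and 1.04 (mean 1.38 ± 0.47, SD, n = 2) and those of Mup18 were 1.69 and 1.17 (mean 1.43 ± 0.37, SD, n = 2). The spots of RNA A and RNA B did not overlap for either probe on either array.

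Mup19 reached 347 for RNA A against 114 for RNA B in the female pools, and 181 against 92.5 in the male pools. Its log2 ratios were 1.61 and 0.97, a mean of 1.29 ± 0.45 (SD, n = 2), and the spots of the RNAs did not overlap on either array. Mup19 thus stood with Mup1, Mup17 and Mup18 in direction on both arrays, and the array 1 ratio was the larger for all 4.

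For Mup21 the signal was 85.8 for RNA A against 48.7 for RNA B in the female pools, but 51.4 against 65.5 in the male pools. RNA A was therefore the brighter on the female array and the dimmer on the male array, and the spots of the RNAs overlapped on neither. The log2 ratios were 0.82 and -0.35, a mean of 0.23 ± 0.83 (SD, n = 2), and the signs were opposite under every scaling tried.

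**Figure D2:**
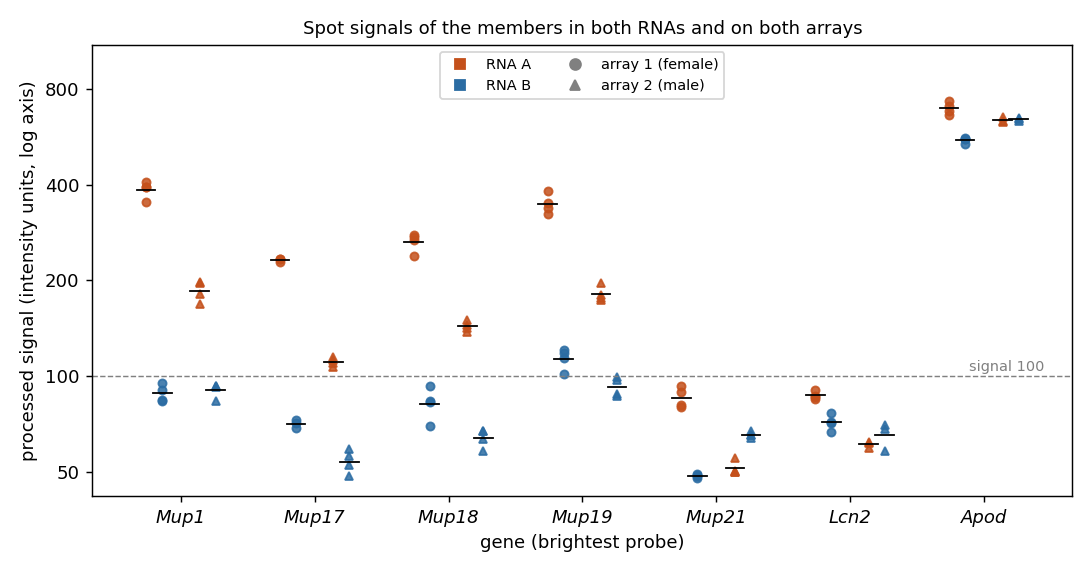
Processed signal of each kept spot (log axis) of the brightest probe of the 7 members above background, in RNA A (orange) and RNA B (blue) on array 1 (circles, female) and array 2 (triangles, male), with a black bar at the mean of the log2 signals. For Mup1, Mup17, Mup18 and Mup19 all orange points lie above the blue points of the same array, while Mup21 changes order between arrays.

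A filter after the study's methods asks for a 1.5-fold difference in 1 direction on each array, and for 100 or more intensity units in whichever RNA is brighter. It kept 4 of the 9 member probes with RNA A brighter (Mup1, Mup17, Mup18 and Mup19) and 0 with RNA B brighter. Of all 39381 probes with a value on both arrays, the filter kept 51 (0.13%) with RNA A brighter and 78 (0.198%) with RNA B brighter. The members had been chosen on this contrast, and nothing is read from their count. Nearest to the signal threshold inside the filter was Mup17, with 111 in RNA A on array 2. Outside it stood Mup-ps16 with 89.8, and Mup2 with 94.6, which at 1.49-fold on array 2 also missed the fold threshold.

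Among the lipocalins of other kinds, Lcn2 and Apod were expressed with ratios near 0, and Obp2a was not detected above background. Lcn2 gave 87.1 for RNA A against 71.6 for RNA B in the female pools, and 61.2 against 65.4 in the male pools. Its log2 ratios were 0.28 and -0.10 (mean 0.09 ± 0.27, SD, n = 2). The spots of the RNAs were apart on array 1 and overlapped on array 2.

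The brighter Apod probe (chr16:31297206-31297265, mm9, minus strand) gave 694 for RNA A against 553 for RNA B in the female pools, and 638 against 641 in the male pools. The spots did not overlap on array 1 and did on array 2. Its log2 ratios were 0.33 and -0.01 (mean 0.16 ± 0.24, SD, n = 2), and the second turned to 0.01 when each array was centred on its median. The dimmer Apod probe (chr16:31296299-31296358) had signals from 2.36 to 6.87, and no RNA was well above background there on both arrays. Obp2a (chr2:25557738-25557797, mm9, plus strand) did not rise well above background in any of the 4 channels, so no ratio is given for it.

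Most of the remaining genes of the Mup cluster had ratios on the side of Mup1, although none passed the filter. Of 9 other named Mup genes on the array, 8 had a probe well above background, and the brightest probe of all 8 was brighter in RNA A on both arrays, as were 6066 of all 28298 probes tested. Their mean log2 ratios had a median of 1.13, against 0.01 for all probes tested. In limma with Benjamini-Hochberg adjustment over all of these probes, 2 of the 8, Mup-ps12 (adjusted p = 0.0216) and Mup3 (adjusted p = 0.0122), passed 0.05. Over all probes, 39 (0.138%) were called with RNA A brighter and 55 (0.194%) with RNA B brighter. Several of these probes share sequence with members or with each other, so they are no independent measurements, and both calls were lost when each array was centred on its median.

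Mup3 had a log2 ratio of 2.10 on array 1. On array 2 its RNA B was not well above background, so the probe entered the test there through RNA A alone and its value of 1.36 depends on how background was handled. With normexp the mean ratio of Mup3 was 0.72 in place of 1.73. Mup-ps12, whose brighter probe shares 27 bases with that of Mup17, had 1.69 and 1.20. Both named genes that passed were thus dim, with signals in RNA A of 33.2 and 16.0 for Mup3 and of 97.1 and 43.2 for the brighter Mup-ps12 probe.

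For Mup20, which encodes the male pheromone darcin, the probes differed in size. The brighter had log2 ratios of 1.67 and 0.85 and the dimmer, printed above beside Mup19, had 0.67 and 0.51. Mup4, a family member known from nasal tissue, had 1.35 and 1.00 at its brighter probe while its other probe stayed at background in all 4 channels.

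Mup2, a liver-expressed family member, had log2 ratios of 1.41 and 0.57, and Mup-ps16 had 1.22 and 0.95. Mup5, known from salivary gland, had 1.20 and 0.60, and Mup11 had 0.72 and 1.02, both with RNA B above background on array 1 only. None of Mup2, Mup4, Mup5, Mup11, Mup20 and Mup-ps16 passed the test.

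Mup6 stayed at background in all 4 channels, although the probe of Mup6 and that of Mup3 are alike. Both are printed for this contrast in detection, with the 1 of 30 positions that differs in capitals.
Mup3: gaggagcatggaatcattagagaAaatatc
Mup6: gaggagcatggaatcattagagaGaatatc
Over their full length these probes were identical at 51 of 60 positions. The 1 of these genes that was measured was Mup3, itself dim, and the Mup6 probe, which shares an identical run of 23 bases with it, had no signal above background. With Mup3 this dim, the pair cannot show whether such a run adds signal from a brighter transcript. The probe of a transcript described as major urinary protein, but without a Mup name, matched that of Mup3 at 52 of 60 positions. It was brighter than Mup3, with 160 and 69.5 in RNA A on arrays 1 and 2. Whether such transcripts add to the Mup3 signal was not tested.

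In all, 15 probes of 13 named Mup genes were well above background, and 14 of them had RNA A brighter in both sexes, the exception being Mup21. Since 4 of the 14 belong to genes chosen for this direction and many share sequence, nothing is read from the count. For 13 of the 15 the ratio was larger on array 1 than on array 2. The files describe 7 further probes as major urinary protein transcripts or pseudogenes without a Mup name. They were picked after their values were seen, and 5 of them were well above background and brighter in RNA A on both arrays, with log2 ratios from 0.65 to 2.54 on array 1 and from 0.51 to 1.71 on array 2.

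**Figure D3:**
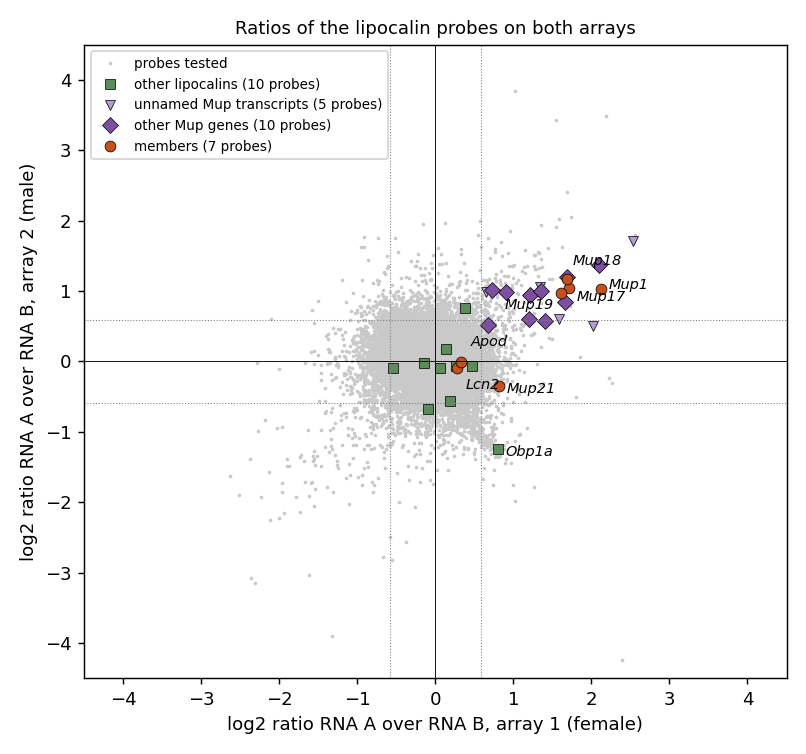
Log2 ratio of RNA A over RNA B on array 1 (horizontal) against array 2 (vertical) for the 28298 probes tested (grey, 1 of them outside the axes), with members, other Mup genes, Mup transcripts without a Mup name and other lipocalins marked, and dotted lines at 1.5-fold. The named and unnamed Mup probes lie at upper right except Mup21, and Obp1a lies at lower right.

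Lipocalins outside the Mup cluster showed no such shift. Of 19 further lipocalin genes on the array, 9 were well above background. Among the 9, RNA A was brighter in both sexes for 2 and RNA B for 3, and 4 changed sign, and the median of their mean log2 ratios was -0.08. None passed the filter or limma, and 1 of the 9, Lcn8 of the epididymal cluster, had an unadjusted p below 0.05. Rbp4, the plasma carrier of retinol, gave 1719 for RNA A against 1897 for RNA B in the female pools and 2016 against 2038 in the male pools, so it differed little between the RNAs.

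Obp1a, an odorant-binding protein of the X chromosome, gave 1530 against 876 in the female pools and 506 against 1202 in the male pools. Its order was therefore opposite on the arrays, with log2 ratios of 0.80 and -1.25, the first of them from 2 kept spots. C8g, a subunit of complement component 8, had 0.27 and -0.06 at its brighter probe. The plasma proteins Ambp and Apom had -0.10 and -0.68, and 0.18 and -0.56. The prostaglandin D synthase Ptgds had -0.54 and -0.10.

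**Figure D4:**
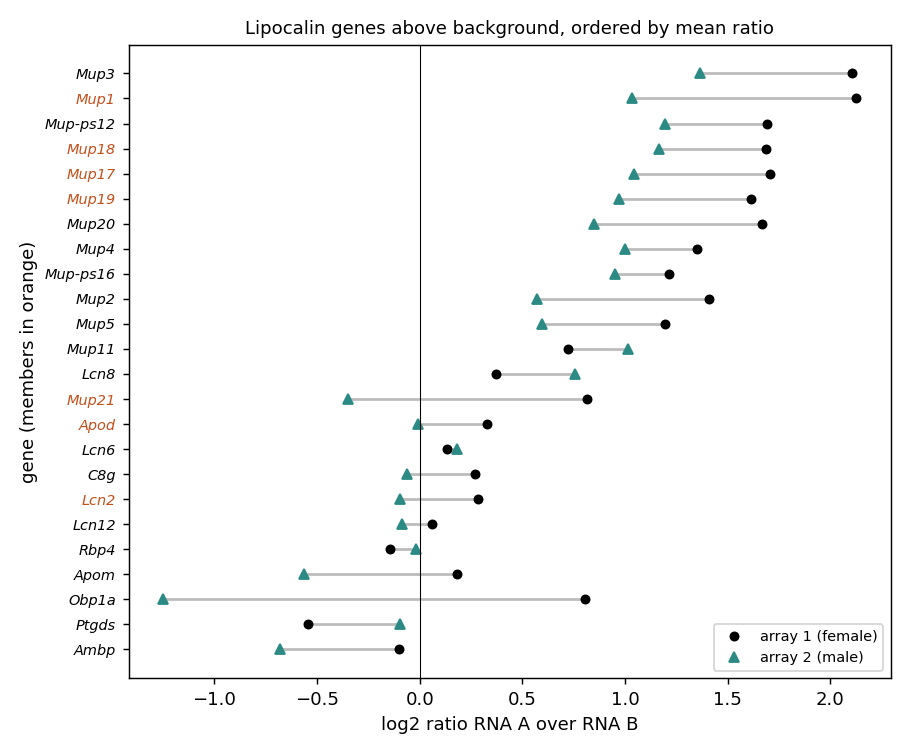
Log2 ratio of RNA A over RNA B on array 1 (circles) and array 2 (triangles) for the 24 lipocalin genes with a probe well above background, at the brightest such probe and ordered by mean ratio, with members in orange. Of the top 12 genes all are Mup genes, with RNA B of Mup3, Mup5 and Mup11 not well above background on array 2, and Mup21 stands below them with Lcn2 and Apod.

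Proteins that bind or take up lipocalins, and the intracellular relatives of the fold, were looked at next. Of 9 receptor and partner genes, all 9 were above background, 0 passed the filter or limma, RNA B was brighter in both sexes for 5 and 4 changed sign, with a median log2 ratio of -0.18. The brightest were Bsg, a receptor of several ligands, with log2 ratios of 0.02 and -0.23, Slc22a17, the receptor described for Lcn2, with -0.32 and -0.39, and Lrp1, an endocytic receptor, with -0.03 and -0.23. The megalin gene Lrp2, whose protein takes up filtered lipocalins in the kidney, had -0.23 and -0.47.

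Of 15 fatty acid and retinoid binding proteins on the array, 11 were above background and 0 passed either rule, with a median log2 ratio of 0.08. Fabp5, a fatty acid carrier, had 0.06 and 0.10, and Fabp4, a target of PPARG in fat, had 0.43 and 0.17.

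Mup1, Mup17, Mup18 and Mup19 also had a lower level in the male pools. The level, as the mean log2 signal of both RNAs on an array, was lower on array 2 than on array 1 by a log2 difference of -0.51 for Mup1, -0.73 for Mup17, -0.62 for Mup18 and -0.62 for Mup19. Over all probes tested the same difference had a median of 0.08 and 5th and 95th percentiles of -0.30 and 0.40, and 2.35% of probes had a difference as low as that of Mup1 or lower. Mup21 had -0.16, Lcn2 -0.32 and Apod 0.05, the last of which turned to -0.06 after scaling to the 75th percentile. Outside the set, Ptgds had -1.11, Mup-ps12 -0.92 at its brighter probe, Ambp -0.90 and Mup-ps16 -0.77. Rbp4 had 0.17 and C8g 0.05 at its brighter probe. The lower level was thus not particular to the 4 members. With 1 array per sex all these differences are a description.

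Genes of cell types known to make lipocalins were read beside these values. All 13 liver genes on the array were above background, and their signals summed to 14030 for RNA A against 12864 for RNA B in the female pools and to 5835 against 11781 in the male pools. Their log2 ratios had a median of -0.07 in the female and of -1.06 in the male pools, and for 0 of 13 was RNA A brighter in both. On array 2 the median of the liver genes was thus below 0, where the ratios of Mup1, Mup17, Mup18 and Mup19 were above it, although Apob of this list had 0.26 there at its brighter probe. The brightest were Apoa2 (log2 ratios 0.47 and -1.06), Afp (-0.10 and -1.41) and Trf (-0.09 and -0.38). Of these, the sign of the apolipoprotein gene Apoa2 changed between arrays as did that of Obp1a. Whether liver RNA took part in any ratio was not tested.

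All 10 neutrophil granule genes, the list nearest to Lcn2, were above background, with summed signals of 7756 for RNA A against 5695 for RNA B in the female pools and 4339 against 7948 in the male pools. Most of these sums came from the elastase gene Elane, with 5560 against 3501 and 2663 against 6165. Of the same list, Mpo, Prtn3 and Ctsg stayed at 65.05 or less in every channel, and S100a9 reached 1212. The sums thus rest mainly on 1 probe. For 4 of the 10 genes RNA A was brighter in both sexes, for 4 RNA B was, and 2 changed sign. Elane had log2 ratios of 0.67 and -1.21, S100a9 -0.03 and -0.15, and S100a8 0.21 and 0.06. None of the 10 passed the filter or limma. Of the glial list, beside Apod, 5 of 6 genes were above background and 0 passed. S100b had log2 ratios of 0.32 and 0.13, and Sox10 of -0.01 and 0.24.

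Of the 7 exocrine gland genes, 2 (Lpo and Amy1) were above background and both changed sign between arrays. Of the 9 nephron and collecting duct genes, 5 were above background and 1, the phosphate transporter gene Slc34a1, was called dimmer in RNA A at 1 of its 2 probes (adjusted p = 0.00269 by limma), where RNA A was not well above background on array 1. The other Slc34a1 probe had log2 ratios of -0.19 and -0.24 and did not pass. The defining genes Umod, Slc12a1 and Slc12a3 were not above background. The part of these cells in the lipocalin values was not tested.

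For the tissue itself, the 10 urothelial genes summed to 66934 for RNA A against 106636 for RNA B in the female pools, and to 71647 against 106071 in the male pools. The uroplakin genes Upk1a, Upk3a and Upk3b passed the filter as brighter in RNA B, with log2 ratios of -1.42 and -1.22, -0.64 and -0.77, and -1.67 and -1.71. These 3 genes of the superficial urothelial cell were brighter in RNA B, whereas the 4 Mup members were brighter in RNA A. Over the whole urothelial list, RNA B was brighter in both sexes for 5 of 10 genes, RNA A for 1 (Krt5, with 0.26 and 0.67 at its brighter probe), and 4 changed sign. The smooth muscle genes summed to 76201 against 93482 in the female and to 69805 against 121912 in the male pools, and 0 of 5 passed.

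Outside the lipocalins, 5 genes had a pair of ratios nearest to that of Mup1, by Euclidean distance of the log2 ratios on 2 arrays among 19192 probes whose brighter RNA reached 100 intensity units on each array. They were ccdc198 (distance 0.42), Gm42035 (0.47), Cpa3, a carboxypeptidase of mast cells (0.64), Dapl1 (0.68) and the tetraspanin gene Tspan1 (0.78). Since they were picked for these ratios, no test is given. For ccdc198 the log2 ratios were 1.73 and 1.18, and for Tspan1 they were 1.62 and 1.63, so Tspan1 lacked the difference between arrays that Mup1 had.

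The upstream sequence of the Mup members was compared because Mup17, Mup18 and Mup19 had positive ratios in both sexes and Mup21 had not. The RefSeq table (GRCm38.p6) held 7 of the 8 genes and none for Mup1. In the 250 bases before the start, the longest identical run was 155 bases between Mup17 and Mup19, 99 between Mup17 and Mup18, and 26 between Mup17 and Mup21. A stretch of 32 bases is printed on the sense strand, at chr4:61596002-61596033 for Mup17, chr4:61674260-61674291 for Mup18, chr4:61782398-61782429 for Mup19 and chr4:62150956-62150987 for Mup21 (all minus strand), with the 29 positions that all 4 share in capitals.
Mup17: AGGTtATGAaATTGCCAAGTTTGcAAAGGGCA
Mup18: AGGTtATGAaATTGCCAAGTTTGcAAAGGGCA
Mup19: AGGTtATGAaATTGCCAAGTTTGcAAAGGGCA
Mup21: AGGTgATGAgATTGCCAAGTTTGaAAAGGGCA
In this window Mup17, Mup18 and Mup19 were identical and Mup21 stood apart at the 3 lower-case positions. The window was placed around a run that all 4 share and not at a matched distance from the start. It lies 201 to 170 bases before the start for Mup17, 197 to 166 for Mup18, 205 to 174 for Mup19 and 146 to 115 for Mup21. The TATA-like string TATATAA, searched on both strands, was in all 4 of these regions and in 3.26% of 27025 regions of this length. It was in 11 of all 14 Mup regions in the table, so it was not particular to these 4. The string AGGTCA, the core of many nuclear receptor sites, was in none of the 4 and in 13.8% of all regions. Its direct repeat with 1 base between, the arrangement that PPARG with RXR binds, was in none of the 7 and in 0.037% of all. A missing string says only that these letters are not in this window.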

How the data were processed

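Ureter RNA of Pparg-cKO and control pools was measured on 2 dual-colour arrays, 1 per sex, on 1 slide read in 1 scan. Processed intensities were deposited as computed by the authors' scanner software (Agilent Feature Extraction, version 10.7.3.1), which subtracts background, puts surrogates in place of values near it and equalises the dyes by a linear step and LOWESS, so ratios of dim probes depend on those steps. The deposited log10 ratio was used only to check the dyes (within 0.001 of the processed signals for 88.9% of spots). The authors' deposited table holds signed fold changes, read as a score with no value between -1 and 1 and a median of 1 in both columns. Its scale is linear, its titles set Pparg-cKO against control, which is RNA A over RNA B here (r = 0.997 with the scanner ratios on either array), and it was used only as an alternative.

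Control spots (17263 per array) and spots with outlier flags were left out (5705 and 5579), and the log2 signals of the kept spots of each probe were averaged. Of 39429 probes, 28328 were named through RefSeq accessions (GRCm38.p6, names only) and the rest by the file. To count as well above background, a probe needed the scanner's flag on a share of 0.5 or more of its kept spots. limma 3.58.1 (R 4.3.3) was fitted with an intercept to the 2 ratios of 28298 probes that 1 RNA or both showed above background on each array, with 1 residual degree of freedom and adjustment at 0.05. It is quoted for genes outside the set only. Each p-value sets the mean of the 2 ratios against a variance that limma moderates over all probes tested. The 2 arrays differ in sex. The fit was tested on simulated ratios with independent normal noise and no dye or array term, so that test does not show how it performs on these arrays. Alternatives were other normalizations, thresholds, the deposited table and leaving out each array.

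The members and gene lists (other lipocalins, receptors, calycins, liver, neutrophil, nephron, glia, adipocyte, exocrine gland, urothelium, smooth muscle) were chosen with earlier results of these data known. Named are all members and Mup genes, genes of the lists that passed or else the 3 brightest (some are not reported here), and the 5 genes nearest to Mup1. Lrp2, Lcn8, Mpo, Prtn3, Ctsg and the lipocalins described beyond these were named after their values were seen. The stage label of the second channel differs from the titles, which were followed.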

Additional observations from a re-analysis of the deposited data

Results flagged for a closer look

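For 7 lipocalins the log2 ratio of RNA A over RNA B was positive on the female array and negative on the male array. The differences between the arrays were not tested, and dye and sex cannot be told apart. Of the members, Mup21 differed by 1.17, Lcn2 by 0.38 and Apod by 0.33, the last with a male ratio that turned positive under centring or normexp. Of the other lipocalins, Obp1a differed by 2.05 (with 2 kept spots on the female array), Apom by 0.75, C8g by 0.33 and Lcn12 by 0.15. Such changes of sign were common, since 60.8% of all probes tested had them.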

How the results depend on the processing

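The direction of the mean log2 ratio of Mup1, Mup17, Mup18 and Mup19 was the same under every normalization, with the deposited table, with all spots kept and without each replicate. Of the 9 member probes, 4 passed as brighter in RNA A in all alternatives except a signal of at least 200 (0) and a 2-fold change (3), and without either replicate 4 passed. Over all probes, a signal of at least 200 left 31 brighter in RNA A. No signal threshold gave 226 and 318 brighter in RNA A and RNA B, the background flag in place of a signal of 100 gave 151 and 185, a 2-fold change gave 21 and 32, and leaving out each replicate gave 368 to 443 and 585 to 766.

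Calls by limma were less stable. Among lipocalins outside the set, 2 genes brighter in RNA A became 0 after centring, with normexp, in the deposited table and without the filter on dim probes (before adjustment, 9, 6, 7 and 9 genes had p under 0.05) and 4 with an intensity trend. Over all probes, brighter in RNA A and RNA B, centring gave 8 and 18, normexp gave 1 and 0, and the deposited table and no filter on dim probes gave 0 and 0 (unadjusted 314 and 394, and 262 and 357). The cause was not tested. Each array held both RNAs as 1 ratio, so every fit was already paired within the array. No further pairing was possible with 1 group, and limma has no residual degree of freedom with 1 array. All 14 Mup probes brighter in RNA A on both arrays were so under each scaling, except that the deposited table lists 1 of them, the dimmer Mup-ps12 probe, without change on array 2. The 2 arrays limit the precision, and dim probes are limited by signal near background.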
